A study of Mus musculus with 6 samples.

Results

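The genes of the TREM receptors and of the proteins that carry their signal were described in 2 subsets of monocyte-derived liver macrophages. The members were chosen by symbol and are the receptors Trem1, Trem2, Trem3, Treml2 and Treml4, the adaptors Tyrobp and Hcst, and the kinase Syk. All 8 were present among the 16503 genes of the expression table. Wild type (WT) mice were fed CDA-HFD, a choline-deficient high-fat diet that induces metabolic dysfunction-associated steatohepatitis (MASH), and both subsets came from livers of such mice. CD11chiMinclehi macrophages (n = 3 libraries) and CD11cloMinclelo macrophages (n = 3 libraries) were sorted from Tim4-negative, Ly6Clo F4/80+ cells by surface CD11c and Mincle, and their polyadenylated RNA was sequenced. The study used the gates to stand for hepatic lipid-associated macrophages (hLAMs) and for monocyte-derived cells with Kupffer cell features (moKCs), so the comparison asked whether the TREM genes differed between them. The titles call the libraries biological replicates, and since no source used here says that each came from a separate mouse, p-values measure the spread between these 6 libraries.

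TREM receptors are immunoglobulin-like receptors, mainly of myeloid cells, and most have no signalling motif of their own. These pair through the membrane with DAP12, the product of Tyrobp, whose immunoreceptor tyrosine-based activation motif (ITAM) is phosphorylated by Src family kinases and then binds the kinase Syk. DAP10, the product of Hcst, recruits phosphoinositide 3-kinase instead. TREM2 binds lipids and lipoproteins and is known for its part in lipid-associated macrophages of fat and liver, whereas TREM1 amplifies inflammatory responses.

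The coding sequence shows how these parts fit together, and the stretches below were read from GENCODE M21 transcripts (GRCm38) to mark the residues on which pairing and signalling rest. In the ITAM of Tyrobp-201, coding bases 274 to 318, capitals mark the 4 codons of its tyrosine and leucine anchor positions, and in the motif of Hcst-201, coding bases 214 to 225, capitals mark the tyrosine and methionine codons that define the phosphoinositide 3-kinase site.
Tyrobp ITAM: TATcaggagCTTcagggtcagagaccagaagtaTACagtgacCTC
Hcst motif: TACatcaacATG

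The membrane span was predicted as the 21 residues of highest mean hydropathy, with the start of each protein left out to skip the signal peptide. For each gene the coding transcript whose span scored highest is shown. In the span, capitals mark every codon of a charged residue. Both adaptors held 1 such codon, for aspartate, and Trem1, Trem2, Trem3 and Treml4 held 1 each, for lysine, the residue that pairs with the aspartate of an adaptor. The span of Treml2 held 0. All stretches are in the sense of their own transcript, which lies on the minus strand for Hcst and on the plus strand for the others.
Tyrobp-201 span: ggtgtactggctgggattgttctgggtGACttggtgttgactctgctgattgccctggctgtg
Hcst-201 span: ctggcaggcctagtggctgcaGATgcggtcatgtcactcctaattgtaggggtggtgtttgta
Trem1-201 span: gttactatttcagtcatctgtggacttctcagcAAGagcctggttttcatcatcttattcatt
Trem2-201 span: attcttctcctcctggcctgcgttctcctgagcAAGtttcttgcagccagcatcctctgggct
Trem3-201 span: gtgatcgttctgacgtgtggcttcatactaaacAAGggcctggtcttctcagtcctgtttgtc
Treml4-201 span: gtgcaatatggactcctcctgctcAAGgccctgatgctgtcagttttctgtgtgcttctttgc
Treml2-201 span: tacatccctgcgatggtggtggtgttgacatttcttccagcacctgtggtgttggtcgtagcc

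Expression is given in TPM, the share of transcripts that a gene takes in a library after its counts are divided by its length. The files fix the number of reads behind each TPM value up to a whole multiple, and the smallest whole numbers that fit summed to between 4.82 and 5.60 M (M for mega) per library. All 11 macrophage markers sought were present in every library, with a summed level of 6119 to 6211 TPM in CD11chiMinclehi and 5982 to 6724 TPM in CD11cloMinclelo libraries. Itgax, which encodes CD11c, was higher in CD11chiMinclehi macrophages (log2 difference 0.83, limma adjusted p = 0.0047), while Clec4e, which encodes Mincle, differed by 0.22 on the log2 scale and did not pass (adjusted p = 0.66). Markers of natural killer cells and T cells varied mainly with the replicate number, whereas the 4 B cell markers measured summed to 111 to 159 TPM in CD11chiMinclehi and 182 to 222 TPM in CD11cloMinclelo libraries. The 8 natural killer cell markers summed to 18.3, 223 and 135 TPM in CD11chiMinclehi replicates 1, 2 and 3 and to 19.4, 340.4 and 139 TPM in CD11cloMinclelo replicates 1, 2 and 3. In such bulk samples fewer cells of a type and less RNA per cell cannot be told apart.

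The expression levels of the members spanned a wide range and kept nearly the same order in both subsets. Tyrobp was the highest, with a mean of 764 TPM over the 6 libraries, and ranked 10 among all genes of the table. Trem2 (267 TPM), Syk (231 TPM) and Treml4 (216 TPM) followed, and the ranges of neighbours among these 3 genes overlapped, so they were not set apart. Hcst (124 TPM), Trem3 (31.2 TPM), Trem1 (15.5 TPM) and Treml2 (3.41 TPM) came next, and in this part of the order no library of one gene reached the range of its neighbour. Among the 5 receptors, Trem2 and Treml4 therefore held most of the summed level of 502 to 557 TPM per library, Trem2 with 47.7% to 53.1% and Treml4 with 37.6% to 42.2%.

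These levels depend on the transcript length used for each gene. The lengths that turn the TPM values of Trem1 and Trem3 into whole reads were 5992 and 1988 bases, exactly 2 times their annotated exon lengths of 2996 and 994 bases in GENCODE M21. The lengths for Tyrobp (564 bases) and Hcst (442 bases) were not enlarged in this way. The levels of Trem1 and Trem3 may thus be understated beside those of Tyrobp and Hcst. For Trem2 the length was 2286 bases, below its exon length of 4946 bases over all transcripts but above its longest coding transcript of 1088 bases, and for Treml4 and Treml2 it was 1.75 and 1.87 times the exon length. Divided by 2, the length was 1747 bases for Treml4, near its longest coding transcript of 1744 bases, and 1143 bases for Trem2. The levels of Treml4, Trem2 and Treml2 may therefore be understated as well, which leaves the order of the members uncertain. Ratios of TPM between the subsets are not affected, because each gene has 1 length in all libraries. The log2(TPM + 1) difference of a low gene can still shift with its length. For Treml2 it was -0.52 with a pseudocount of 0.1 and -0.21 with a pseudocount of 5.

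**Figure D1:**
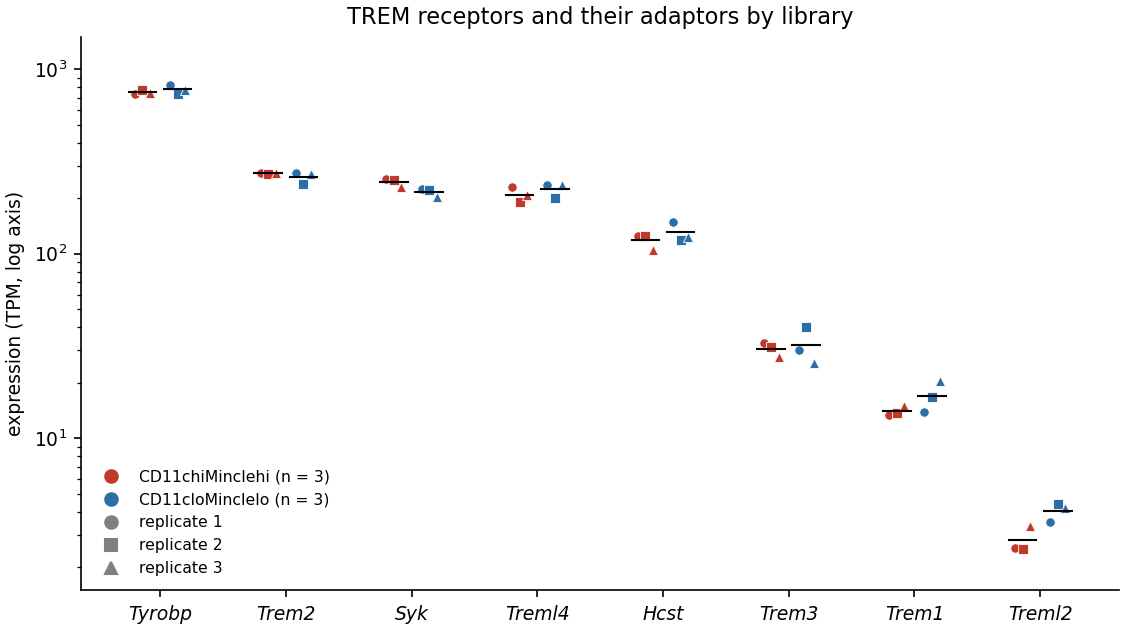
Expression of the 8 members in TPM on a log axis, with 1 point per library, the replicate number given by the symbol and horizontal lines for the group means. Tyrobp sits above 730 TPM in every library and Treml2 below 4.5 TPM, and the red and blue points of each gene lie close together.

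Among the members, 0 of 8 passed the test between the subsets (limma on log2(TPM + 1), Benjamini-Hochberg adjusted p under 0.05 over all 16503 genes), where 1.22% of all genes tested were called. With the replicate number as a block, 0 of 8 passed as well, where 3.42% of all genes were called. At an unadjusted p under 0.05, 1 of 8 members passed against 12.9% of all genes. In 2 of 8 members the groups did not overlap, beside 18.5% of all genes. Syk was the member with all CD11chiMinclehi values higher, beside 9.25% of all genes, and Treml2 the member with all of them lower, beside 9.22%. The median log2 difference of the members was -0.08, beside -0.01 over all genes.

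Trem2 did not pass the test and had closely similar means in the subsets. Its expression was 272, 270.2 and 275 TPM in CD11chiMinclehi replicates 1, 2 and 3 and 275, 239.7 and 271 TPM in CD11cloMinclelo replicates 1, 2 and 3. The groups overlapped, and CD11cloMinclelo replicate 2 alone lay apart, below the other 5 libraries. That library also had the highest summed markers of natural killer cells (340 TPM) and T cells (298 TPM). Its summed macrophage markers were the lowest (5982 TPM). The part of other cells in its level of Trem2 was not tested. The log2 difference, CD11chiMinclehi minus CD11cloMinclelo, was 0.06 ± 0.06 (SE, n = 3 per group, limma adjusted p = 0.78). Its 95% interval ran from -0.08 to 0.20, that is from 0.943-fold to 1.15-fold. Without CD11cloMinclelo replicate 2 the difference was -0.0029. Duplicate reads were removed before counting, and the part of this step in the small difference of Trem2 was not tested.

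Treml4 encodes a receptor that pairs with DAP12 in mouse and is known there to bind dying cells and to strengthen the response to a viral RNA sensor. It was measured at 229, 191 and 207 TPM in CD11chiMinclehi and at 235, 201 and 235 TPM in CD11cloMinclelo replicates 1, 2 and 3. Each CD11cloMinclelo library was above the CD11chiMinclehi library of the same number, although the groups overlapped. The log2 difference was -0.10 ± 0.09 (SE, limma adjusted p = 0.73, and 0.45 with the replicate block), with a 95% interval from -0.30 to 0.11. Treml4 is on the study's moKC gene list and Trem2 on its list for scar-associated macrophages, both taken from earlier work. The 9 Kupffer cell markers summed to 1184 to 1551 TPM in CD11chiMinclehi and 1972 to 2910 TPM in CD11cloMinclelo libraries, ranges that did not overlap. Of these markers 0 passed the test, 4 were lower with the block, and Nr1h3 had a log2 difference of 0.09.

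Trem1 and Trem3 encode activating receptors that use DAP12 in mouse and are well known in neutrophils and inflammatory macrophages. Trem1 stood at 13.3, 13.8 and 14.9 TPM in CD11chiMinclehi and 13.9, 16.7 and 20.5 TPM in CD11cloMinclelo replicates 1, 2 and 3. It was lower in the CD11chiMinclehi library of all 3 same-numbered pairs, and the groups overlapped. The log2 difference was -0.25 ± 0.22 (SE, limma adjusted p = 0.72), with an interval from -0.76 to 0.26. In each subset Trem1 was lowest in replicate 1, where the sum of the 11 neutrophil markers was lowest too, at 343 against 560 and 619 TPM in CD11chiMinclehi and 297 against 658 and 604 TPM in CD11cloMinclelo libraries. Of these markers Camp, Ltf, Ngp, Elane and Mpo were listed at 0 in at least 1 library. The part of neutrophil RNA in the level of Trem1 was not tested.

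Trem3 showed no direction. Its values were 32.8, 31.0 and 27.7 TPM in CD11chiMinclehi and 30.0, 40.2 and 25.6 TPM in CD11cloMinclelo replicates 1, 2 and 3. Both the highest and the lowest library belonged to the CD11cloMinclelo subset, which enclosed the other. The log2 difference was -0.04 ± 0.19 (SE, limma adjusted p = 0.97), and it turned positive without CD11cloMinclelo replicate 2 (0.13) or without CD11chiMinclehi replicate 3 (0.022).

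Treml2 encodes a receptor of lymphocytes and myeloid cells that lacks the membrane lysine shown above, and it had the largest log2 difference of the members. It was measured at 2.53, 2.50 and 3.34 TPM in CD11chiMinclehi and at 3.52, 4.40 and 4.18 TPM in CD11cloMinclelo replicates 1, 2 and 3. All CD11chiMinclehi libraries were below all CD11cloMinclelo libraries. The log2 difference was -0.41 ± 0.36 (SE, limma adjusted p = 0.73), and the interval from -1.25 to 0.43 was the widest of the 8. These levels rested on as few as 43, 40 and 57 reads in CD11chiMinclehi and 55, 79 and 65 reads in CD11cloMinclelo libraries, if the smallest whole numbers apply.

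Neither adaptor passed the test. Tyrobp was measured at 730.5, 776 and 742 TPM in CD11chiMinclehi and at 826, 735 and 776 TPM in CD11cloMinclelo replicates 1, 2 and 3. The groups overlapped, and the log2 difference was -0.05 ± 0.05 (SE, limma adjusted p = 0.73). The interval, from -0.17 to 0.06, was the narrowest of the 8 and corresponds to 0.892-fold to 1.04-fold. Within libraries, Tyrobp stood at 1.34 to 1.53 times the summed level of Trem1, Trem2, Trem3 and Treml4, the members with the membrane lysine, on the deposited lengths. With the summed receptor level taken 2 times as high, the ratio was 0.668 to 0.767. Whether the adaptor or these receptors stood higher thus depends on the lengths used.

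Hcst was measured at 125, 124 and 105 TPM in CD11chiMinclehi and at 149, 118 and 123 TPM in CD11cloMinclelo replicates 1, 2 and 3. CD11cloMinclelo replicate 1 was the highest and CD11chiMinclehi replicate 3 the lowest, and the others lay together. The log2 difference was -0.14 ± 0.11 (SE, limma adjusted p = 0.71), with an interval from -0.40 to 0.12. Hcst is also used by natural killer cells and T cells, where DAP10 carries the signal of the receptor NKG2D. Its level in replicate 1, where natural killer cell markers summed lowest, was 125 TPM beside 124 TPM in replicate 2 of the CD11chiMinclehi subset, and the highest of the CD11cloMinclelo subset. The part of these cells in the level of Hcst was not tested. There were 5.53 to 7.06 times as many TPM of Tyrobp as of Hcst in every library. Tyrobp and Hcst lie tail to tail on chromosome 7, chr7:30413760-30417585 on the plus strand and chr7:30417712-30419854 on the minus strand, with 126 bases between them. The strand setting of the counting is not given in the sources used here, so reads that ran past either gene end cannot be assigned with certainty.

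**Figure D2:**
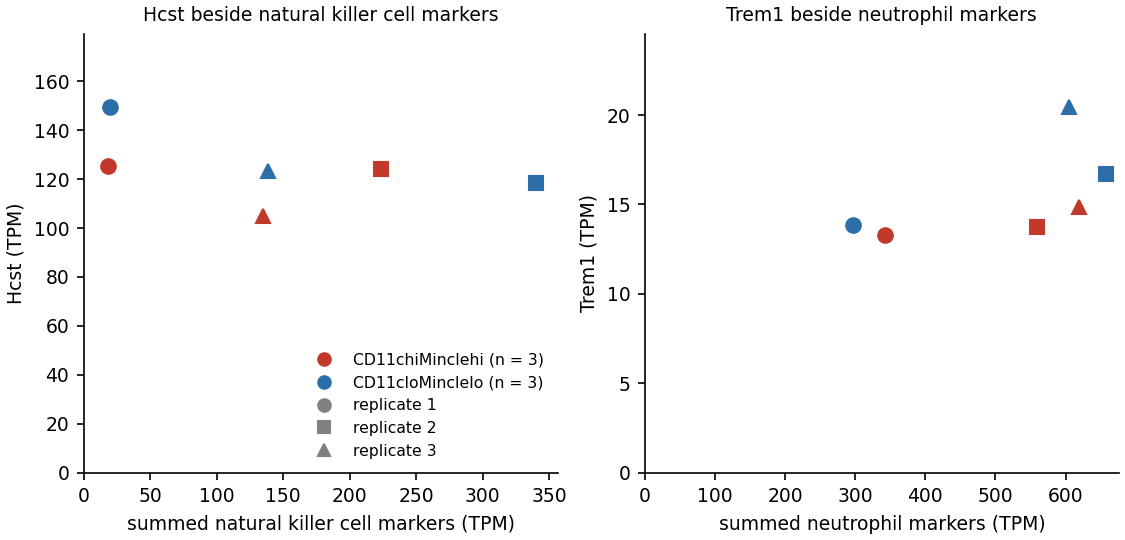
Hcst against the summed natural killer cell markers (left) and Trem1 against the summed neutrophil markers (right), both in TPM on linear axes with 1 point per library. Hcst is highest, at 149 TPM, where natural killer cell markers sum to 19.4 TPM, and Trem1 is lowest in the replicate 1 libraries, at 13.3 and 13.9 TPM.

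Syk, the kinase that docks on the phosphorylated ITAM, came nearest to a difference. It was measured at 255, 252 and 231 TPM in CD11chiMinclehi and at 225, 223 and 203 TPM in CD11cloMinclelo replicates 1, 2 and 3. Every CD11chiMinclehi library was above every CD11cloMinclelo library, and replicate 3 was the lowest of both subsets. The log2 difference was 0.18 ± 0.07 (SE, n = 3 per group), 1.13-fold, with a 95% interval from 0.03 to 0.33. This did not pass after adjustment over all genes (limma unadjusted p = 0.026, adjusted p = 0.30, and 0.12 with the replicate block). The ratio of Syk to Tyrobp within a library, a measure chosen after the values were seen and not tested, was 0.349, 0.324 and 0.311 in CD11chiMinclehi and 0.273, 0.303 and 0.262 in CD11cloMinclelo libraries. Syk lies on chromosome 13, chr13:52583173-52648792 on the plus strand.

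**Figure D3:**
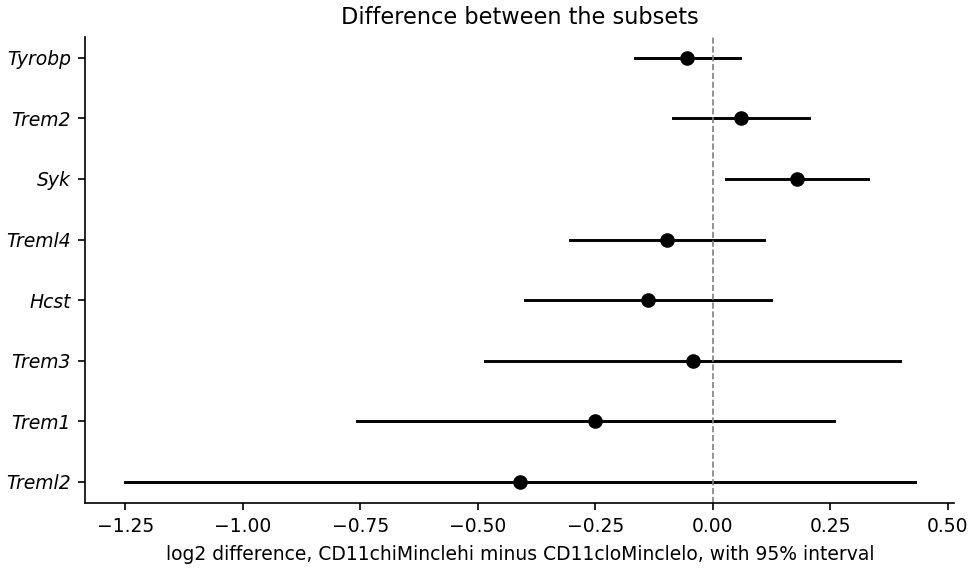
Log2 difference of each member, CD11chiMinclehi minus CD11cloMinclelo, on the log2(TPM + 1) scale (points) with its 95% interval from limma (lines). The interval of Syk, from 0.03 to 0.33, excludes 0 before adjustment, and the other 7 intervals include it.

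The 5 receptor genes lie in 1 cluster on the plus strand of chromosome 17, and neighbours in it differed strongly in level. From Trem1 (chr17:48232768-48246924) the order runs over Trem3 (chr17:48247777-48258841), Treml4 (chr17:48264295-48275360) and Treml2 (chr17:48299498-48312533) to Trem2 (chr17:48346401-48354147). The low gene Treml2 thus lay between Treml4 and Trem2, the highest receptor genes. Another 2 TREM-like genes of the cluster were measured. B430306N03Rik, which RefSeq also names Treml6, stood at 92.5, 81.1 and 86.2 TPM in CD11chiMinclehi and 71.1, 65.3 and 81.6 TPM in CD11cloMinclelo replicates 1, 2 and 3. The groups overlapped and the log2 difference of 0.25 did not pass (limma adjusted p = 0.38). Treml1, known from platelets and the last gene of the 134-kb cluster, was the lowest.

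Treml1 was measured at 2.39, 1.62 and 2.16 TPM in CD11chiMinclehi and at 0.708, 0.410 and 0.711 TPM in CD11cloMinclelo replicates 1, 2 and 3. All CD11chiMinclehi values were higher, and the log2 difference of 0.92 ± 0.46 (SE) did not pass (limma adjusted p = 0.46). As few as 11, 7 and 10 reads against 3, 2 and 3 reads stood behind them. The 5 platelet markers measured, Treml1 among them, summed to 185 to 282 TPM in CD11chiMinclehi and 274 to 397 TPM in CD11cloMinclelo libraries, ranges that overlapped. Most of this sum was Pf4, and Itga2b and Gp1ba were listed at 0 in 1 library. The part of platelet RNA in the level of Treml1 was not tested. Among the 4 genes measured beside the cluster, 0 passed the test, and Tfeb, a transcription factor of lysosomal genes, had the largest log2 difference (0.23, adjusted p = 0.22), with groups that did not overlap. The other values were 0.05 for Oard1, 0.17 for Foxp4 and -0.0092 for Nfya.

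**Figure D4:**
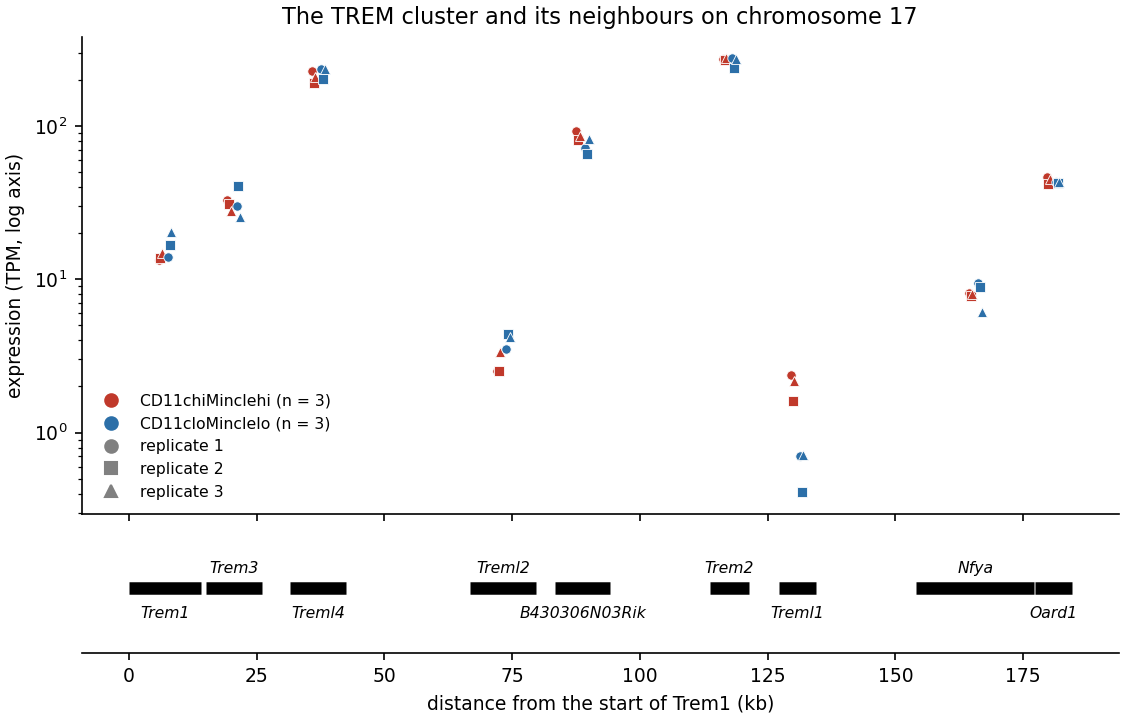
Expression of the TREM cluster and the next genes in TPM on a log axis (upper part, 1 point per library) at the middle of each gene, with gene bodies drawn to scale as distance in kb from the start of Trem1 (lower part). Trem2 and Treml4 stand near or above 200 TPM, Treml2 between them stays below 4.5 TPM, and Treml1 is the lowest gene.

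The genes whose pattern over the 6 libraries was most like that of a member were sought among 10418 genes with a mean of at least 10 TPM. These are correlations of log2(TPM + 1) given as a description, and all points share the depth and composition of their library. Among so many genes and with only 6 libraries, values this high can arise by chance, and no link was tested. For Trem2 they were Cebpa, a transcription factor of myeloid cells, at r = 0.99, Snu13 (0.98), the lysosomal protease gene Ctsb (0.98), Tm4sf5 (0.98) and Tmem109 (0.97). Like Trem2, Cebpa was lowest in CD11cloMinclelo replicate 2, at 160.2 TPM against 174 to 177 TPM in the other libraries. For Tyrobp they were Ccdc12 (0.99), the ribosomal protein genes Rpl23 (0.97) and Rpl19 (0.97), Gm9523 (0.97) and Numa1 (0.97), which were all highest in CD11cloMinclelo replicate 1. For Treml2 they were Ddx58, which encodes the viral RNA sensor RIG-I (0.99), Pkig (0.99), Mier3 (0.99), Cnp (0.99) and Cops7a (0.99).

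Other genes of the pathway were taken from 9 lists, of which 109 different genes were measured. Of these 4 were called, 3 higher and 1 lower in CD11chiMinclehi macrophages, which is 3.67% beside the 1.22% of all genes and the 3.27% of genes with a mean from 100 to 500 TPM. With the replicate block 15 were called, 8 higher and 7 lower, which is 13.8% beside 3.42% of all genes, and all 4 were among them. No blocked share was worked out for genes of like level, so the 13.8% is not read as an excess. The list counts below are likewise set beside all genes, of which those with low levels were called less often. The called genes were Lgals3, Gpnmb, Cd63 and Ccl2, described below.

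Among 15 measured receptors of 17 listed that use DAP12 or DAP10 besides the TREM genes, 0 passed the test, and the median log2 difference was -0.15. With the block, 2 were lower and 0 higher, beside 1.75% of all genes lower. Sirpb1a, an activating member of the signal regulatory family, was measured at 97.3, 94.3 and 91.8 TPM in CD11chiMinclehi and at 152, 146 and 112 TPM in CD11cloMinclelo libraries (log2 difference -0.52, limma adjusted p = 0.10, and 0.036 with the block). Its near-identical paralogs make the counting uncertain. Klrk1, which encodes the DAP10 and DAP12 receptor NKG2D, was measured at 7.12, 15.0 and 15.4 TPM in CD11chiMinclehi and at 19.6, 35.4 and 27.4 TPM in CD11cloMinclelo replicates 1, 2 and 3 (log2 difference -1.11, adjusted p = 0.22, and 0.040 with the block). Within each subset Klrk1 was lowest in replicate 1, as the natural killer cell markers were, but replicate 1 of the CD11cloMinclelo subset, with 19.4 TPM of those markers, still exceeded every CD11chiMinclehi library. The part of natural killer cells in this difference was not tested. The most abundant genes of the list were members of the Cd300 family, which are close paralogs. Cd300lb had a log2 difference of 0.20 with groups that did not overlap (adjusted p = 0.12), Cd300c2 one of 0.07 and Cd300ld one of -0.06.

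The other route to Syk runs through the Fc receptor gamma chain, encoded by Fcer1g, which serves Mincle and the Fc receptors. Of 10 measured genes of this list 0 passed the test, with a median log2 difference of 0.02, and with the block 1 was higher and 3 were lower, beside 1.67% and 1.75% of all genes. Fcer1g itself was measured at 638, 647 and 627 TPM in CD11chiMinclehi and at 714, 611 and 664 TPM in CD11cloMinclelo libraries, a log2 difference of -0.05 (limma adjusted p = 0.77). Its ratio to Tyrobp was 0.831 to 0.873 in all libraries, so that both ITAM adaptors were abundant in each subset. Clec4d, a C-type lectin receptor that pairs with Mincle, was higher with the block (log2 difference 0.46, adjusted p = 0.076, and 0.011 with the block). Clec1b, Fcgr1 and Fcgr4 were lower with the block, with log2 differences of -1.16, -0.27 and -0.22 (adjusted p = 0.064, 0.074 and 0.053, and 0.0016, 0.046 and 0.040 with the block). Clec1b, which encodes the podoplanin receptor CLEC-2, stood at 94.6, 85.2 and 149 TPM against 206, 211 and 315 TPM. It is a known gene of Kupffer cells and platelets. The summed markers of Kupffer cells were higher in every CD11cloMinclelo library, those of platelets overlapped, as given above, and their part in the difference was not tested. Fcgr3 (-0.05) and Clec7a (0.08) did not pass in either model.

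Of 6 measured Src family kinase genes, which phosphorylate the ITAM, 0 passed in either model. Lyn had the lower values in CD11chiMinclehi macrophages, with 261, 254 and 266 TPM against 316, 297 and 299 TPM, and the groups did not overlap (log2 difference -0.22, limma adjusted p = 0.082, and 0.058 with the block). For Fgr the groups overlapped (log2 difference 0.16, adjusted p = 0.40). Of 25 genes downstream of Syk 0 passed, the median was -0.03, and with the block 1 of 25 was higher, beside 1.67% of all genes. This was Malt1, the protease of the CARD9 and BCL10 complex, with 110.5, 95.3 and 73.8 TPM in CD11chiMinclehi and 69.2, 73.7 and 35.1 TPM in CD11cloMinclelo replicates 1, 2 and 3 (log2 difference 0.69, adjusted p = 0.35, and 0.049 with the block). The most abundant of the rest were Prkcd (0.17), Vav1 (-0.10) and Pik3ap1 (-0.13), of which only Prkcd had groups that did not overlap.

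Of 15 measured inhibitors of ITAM signalling 0 passed, and the median log2 difference was -0.06. With the block 1 was higher and 1 lower, beside 1.67% and 1.75% of all genes. Pirb, an inhibitory receptor with close paralogs, was measured at 206, 238 and 192 TPM in CD11chiMinclehi and at 156, 179 and 145 TPM in CD11cloMinclelo libraries (log2 difference 0.40, limma adjusted p = 0.14, and 0.014 with the block). Dok3, an adaptor that restrains Syk signalling, differed in the other direction (-0.27, adjusted p = 0.082, and 0.0495 with the block). Dok2 had a log2 difference of 0.19 with groups that did not overlap (adjusted p = 0.14), and Sirpa (-0.04) and the phosphatase gene Ptpn6 (-0.06) did not pass.

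Genes known to depend on Trem2 were also described, although Trem2 itself did not pass the test. The list held genes whose rise in disease-associated microglia of mice is known to need Trem2. Of 13 measured genes 2 were called higher and 0 lower, beside 0.770% of all genes called higher, and with the block 4 were higher and 0 lower, beside 1.67%. The median log2 difference was 0.20, with 12 of 13 genes above 0. The groups did not overlap in 7 of 13, beside 18.5% of all genes and 35.8% of the 109 pathway genes. Other lists had similar shares. The groups did not overlap in 5 of 10 genes of the Fc receptor gamma chain list. This also held for 7 of 15 other DAP12 or DAP10 receptors and 7 of 15 ITAM inhibitors. The list of genes known to need Trem2 was chosen with earlier results of these data known. It holds markers of hLAMs, for which the CD11chiMinclehi gate stands. These counts are therefore no test of dependence on Trem2. Gpnmb, a glycoprotein of lysosomes in lipid-laden macrophages, rose most among the called genes, from 318, 320.5 and 353 TPM in CD11cloMinclelo to 432, 446 and 456 TPM in CD11chiMinclehi replicates 1, 2 and 3 (log2 difference 0.43, limma adjusted p = 0.018). Leaving out 1 library gave adjusted p-values from 0.043 to 0.083, past the threshold without CD11cloMinclelo replicate 3 only, and 0.22 without the mean-variance trend. Its ratio to Trem2, chosen after the values were seen, was 1.59 to 1.66 in CD11chiMinclehi and 1.16 to 1.34 in CD11cloMinclelo libraries.

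Cd63, which encodes a tetraspanin of late endosomes, was higher as well, with 382, 379 and 360.1 TPM in CD11chiMinclehi and 293, 271 and 297 TPM in CD11cloMinclelo libraries (log2 difference 0.38, limma adjusted p = 0.024). Lpl, the gene of lipoprotein lipase (0.27, adjusted p = 0.11, and 0.037 with the block), and Cd9, another tetraspanin gene (0.20, adjusted p = 0.12, and 0.049 with the block), were higher with the block only. Cd68 (0.11), Clec7a (0.08) and Axl (-0.04), the most abundant of the others, did not pass. Several of these genes are also known markers of hLAMs. When any 1 library was left out, the adjusted p of Cd63 ran from 0.053 to 0.12, after median centring it was 0.089, and without the mean-variance trend it was 0.25.

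Of 14 measured genes for proposed TREM2 ligands and for the proteases that shed the receptor, 1 was called higher, beside 0.770% of all genes. Lgals3, which encodes galectin-3, was measured at 552, 559.7 and 532 TPM in CD11chiMinclehi and at 447, 425 and 455 TPM in CD11cloMinclelo libraries (log2 difference 0.31, limma adjusted p = 0.024). The groups were clear of each other, but the call was lost without any 1 of the libraries (adjusted p = 0.052 to 0.12) after median centring (0.12) and without the mean-variance trend (0.30). The median of the list was -0.07, and 11 of 14 genes were below 0. Apoe, the lipoprotein gene, was abundant and had overlapping groups, with 696 to 727 TPM in CD11chiMinclehi and 691 to 790.2 TPM in CD11cloMinclelo libraries (-0.09, adjusted p = 0.55). Apoa1 (-0.09) and Ncstn, a gamma-secretase subunit gene (-0.06), did not pass. Apoa1 is made by hepatocytes, and the 6 hepatocyte markers, Apoa1 among them, summed to 953 to 1657 TPM in CD11chiMinclehi and 1071 to 1553 TPM in CD11cloMinclelo libraries.

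Among 8 proposed ligands of TREM1 and inflammatory genes that it amplifies, 1 was called lower in CD11chiMinclehi macrophages and 0 higher, beside 0.454% of all genes called lower. This was Ccl2, the monocyte chemoattractant, at 88.1, 78.0 and 109.6 TPM in CD11chiMinclehi and 244, 211 and 251 TPM in CD11cloMinclelo replicates 1, 2 and 3. The groups lay far apart, with a log2 difference of -1.36 ± 0.13 (SE, n = 3 per group, limma adjusted p = 0.0083). It was lost without CD11chiMinclehi replicate 1 (0.068) and without the mean-variance trend (0.10), and kept without any other library. Il1b (-0.16, adjusted p = 0.30), Tnf (0.05) and Cxcl2 (-0.0028) overlapped and did not pass. Trem1 and Ccl2 thus both had the lower mean in CD11chiMinclehi macrophages, but only Ccl2 passed the test, and no test of a link between them was made.

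**Figure D5:**
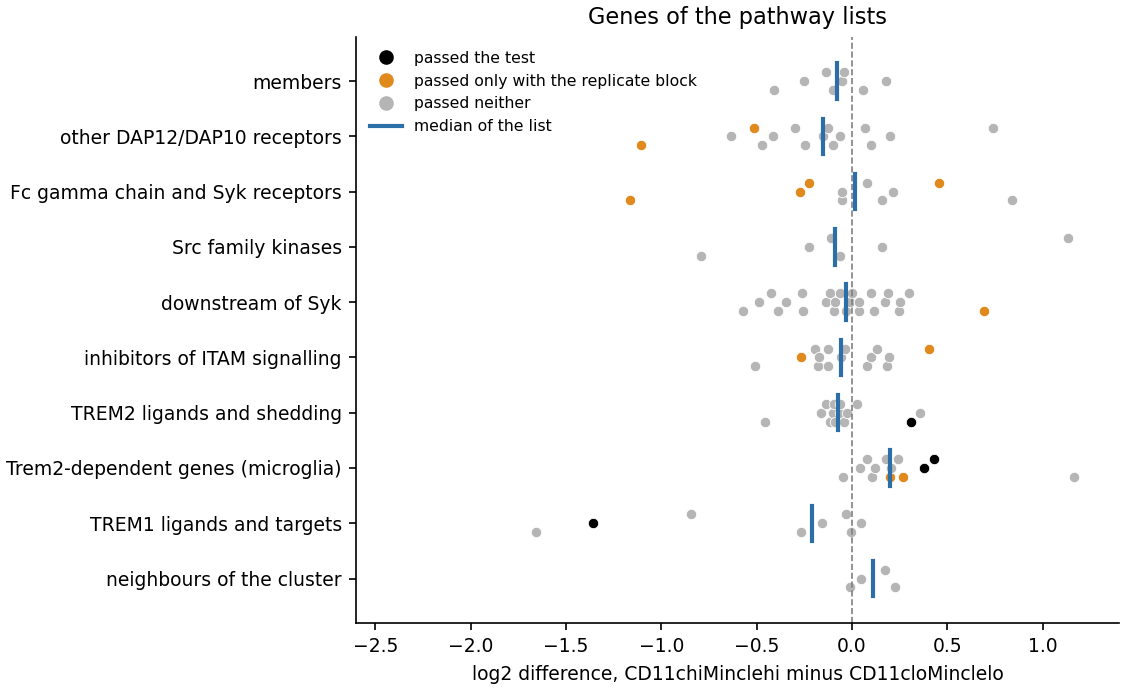
Log2 difference, CD11chiMinclehi minus CD11cloMinclelo, of each gene of the members and the 9 pathway lists, with vertical bars for the median of each list. Black points passed limma's test, orange points passed only with the replicate block, and the 8 members are all gray. The genes known to depend on Trem2 in microglia, a list chosen with earlier results of these data known, had a median of 0.20.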

How the data were processed

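Polyadenylated RNA of 6 libraries, 3 per subset, was prepared with a directional kit. Per the submitters' processing notes and the methods, trimming used Trimmomatic 0.39.0, alignment to GRCm38/mm10 used HISAT2 2.2.1, Picard took out duplicates, and counting used featureCounts 2.0.1. Removing duplicates without molecular identifiers lowers the counts of abundant, short transcripts, and the highest single value was 1382 TPM. From these counts and gene lengths the authors derived the deposited TPM values. The methods name UCSC mm10 as the basis of the lengths, which GENCODE M21 need not match. Neither an annotation release nor a strand setting for the counting is stated in the sources used.

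The 16503 genes of the table had means of at least 1.00 TPM. Expression was tested as log2(TPM + 1), a scale that understates the change of low genes, with limma 3.58.1 in R 4.3.3 (empirical Bayes with a mean-variance trend, two-sided, all genes, both groups) and checked on simulated data. The threshold for a call was an adjusted p (Benjamini-Hochberg) below 0.05. A permutation test of a single gene cannot go below 0.1 here, so whether the groups overlap is given instead. Alternatives were a pseudocount of 0.1 or 5, a minimum mean of 5 TPM, median centring, other variance models, the replicate number as a block, and leaving out each library. For 16499 genes, a whole-base length made all 6 values whole multiples of the step of their library, within 0.003 of a read. This gave the smallest whole reads, which may be reads or pairs and cover counting error only.

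Deviations from the group means correlated at 0.36, 0.20 and 0.12 between libraries sharing the numbers 1, 2 and 3, each best with its own number, so same-numbered libraries were treated as pairs for the block. This pairing was thus read from the same values that the blocked fit tests. The paper used paired t-tests between these gates in other measurements, but no source used here states the pairing of these libraries. Blocked values stand where they change a call or a count.

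The members and lists were chosen with earlier results of these data known. All members were named. From each list, genes past the threshold in either model were named, up to 6 by absolute difference, with up to 3 more of the highest mean, besides the 5 genes most like Trem2, Tyrobp and Treml2. A gene that this rule names is not reported here. Locations and transcripts came from GENCODE M21 (GRCm38), where 8 members matched. Sequences were translated with Biopython 1.88 and figures drawn with matplotlib 3.10.9.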

Additional observations from a re-analysis of the deposited data

How the results depend on the processing

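The count of members called stayed at 0 under all alternatives run, with Treml2 untested where a mean of 5 TPM was required. The sign of the difference held for Trem1, Treml2, Treml4, Tyrobp, Hcst and Syk in every alternative. Leaving out 1 library gave -0.0029 to 0.10 for Trem2, negative without CD11cloMinclelo replicate 2 only, and -0.18 to 0.13 for Trem3, positive without that library and without CD11chiMinclehi replicate 3 (0.022). Over all genes, 202 were called, 19 without the mean-variance trend and 564 with the replicate block, and leaving out 1 library gave 6 to 92. Of the pathway genes 4 were called, 2 with median-centred libraries, 0 without the trend and 15 with the replicate block, and leaving out 1 library gave 0 to 3, without CD11chiMinclehi replicate 1 the lowest. The cause of these changes was not tested, but fits without a library also rest on fewer samples. Genes with no spread were left out of those fits. The blocked pairing changed no call of a member. Treml2 and Treml1 rested on the fewest reads of the genes named in the cluster, and how far depth limited their tests was not tested.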

Other observations

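Lengths at exactly 2 times the annotation, as for Trem1 and Trem3, were not common in the table. Among 16100 genes with a unique symbol in the annotation, 91 had a whole-base length exactly 2 times the annotated exon length. In the stretch of chromosome 17 from Trem1 to Oard1 this held for 3 of 9 genes, Trem1, Trem3 and Oard1. Treml4 had a length of 3494 bases, beside a longest coding transcript of 1744 bases.

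Differences between the subsets were smaller in abundant genes, although genes of at least 100 TPM were called more often than lower ones. The share called was highest from 100 to 500 TPM. In the 85 genes with a mean of at least 500 TPM, among them Tyrobp, Fcer1g, Apoe and Cd68, the largest absolute log2 difference was 0.27, the median was 0.06, and 2.35% were called. In the 3213 genes from 100 to 500 TPM, which include Trem2, Treml4, Syk and Hcst, the median was 0.09, the largest 2.74, and 3.27% were called, against 1.05% from 10 to 100 TPM and 0.329% below 10 TPM. The removal of duplicates acts most on the first group, and its part in the narrow range was not tested.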
